A study of Mus musculus with 8 samples.

Results

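The 42 genes described here encode the contractile and metabolic machinery of striated muscle, together with 3 regulators of muscle precursors, and were followed across the bulk RNA of 8 mouse tumors. They were chosen by symbol, as the 42 of 55487 rows of the count table whose identifier maps to a listed gene. The list itself was drawn up with earlier results of these data known. By general knowledge of their main isoform, 15 were classed as fast, 7 as slow, 3 as cardiac, 14 as shared between fiber types and 3 as regulators.

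The tumors were Lewis lung carcinoma (LLC), a mouse lung cancer line, grown subcutaneously in syngeneic C57BL/6J mice and taken at day 12. Each group held 4 tumors labelled as biological replicates. In 4 tumors the implanted cells were wild-type, and in the other 4 they were labelled Ago2 knock-out (ΔAgo2), made with a lentiviral CRISPR guide and grown from a single cell, so the genotype cannot be told apart from this 1 clone. Ago2 (Argonaute 2) is the slicing enzyme of RNA interference, guided by small RNAs, and the mice that bore both kinds of tumor kept their own Ago2. The mice were females bought at 6 to 8 weeks of age. What was trimmed from each tumor is not given in the sources used here.

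In a striated muscle fiber, myosin heads on thick filaments pull on actin thin filaments, and the troponin complex (T, I and C) makes that contact depend on calcium. Fast and slow fibers and heart muscle build the same sarcomere from different members of each family, so the mixture of isoforms tells which kind of muscle RNA a sample holds. Heart-type troponin T is also made in immature skeletal muscle, and the slow heavy and light myosin chains are also made in the heart ventricle. Mouse skin, under which the tumors were grown, carries a thin sheet of skeletal muscle.

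Promoter sequence is shown for the 2 members that differed between the groups by the test used below, Myh2 and Tnnt2, and for Myh4, a fast myosin heavy chain gene in the same cluster as Myh2 that did not pass. Each line is the 250 bases before the start that RefSeq gives (build GRCm38.p6, all on the + strand), at chr11:67170777-67171026 for Myh2, chr11:67237562-67237811 for Myh4 and chr1:135836084-135836333 for the upstream start of Tnnt2. Capitals mark matches, on either strand, to the E-box (CANNTG), the M-CAT element (CATTCC), the TATA box (TATAAA), the MEF2 element or the CArG box, the last pair searched by their usual consensus.
Myh2: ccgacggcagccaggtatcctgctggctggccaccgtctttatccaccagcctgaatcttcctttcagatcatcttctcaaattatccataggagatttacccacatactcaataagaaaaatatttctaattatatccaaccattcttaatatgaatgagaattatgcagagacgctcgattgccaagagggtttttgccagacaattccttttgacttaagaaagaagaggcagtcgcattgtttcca
Myh4: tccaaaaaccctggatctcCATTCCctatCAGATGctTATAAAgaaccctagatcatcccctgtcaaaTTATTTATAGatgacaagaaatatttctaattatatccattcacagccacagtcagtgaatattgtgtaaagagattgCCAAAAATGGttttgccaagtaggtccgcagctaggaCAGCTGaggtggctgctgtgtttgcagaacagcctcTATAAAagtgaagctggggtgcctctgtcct
Tnnt2: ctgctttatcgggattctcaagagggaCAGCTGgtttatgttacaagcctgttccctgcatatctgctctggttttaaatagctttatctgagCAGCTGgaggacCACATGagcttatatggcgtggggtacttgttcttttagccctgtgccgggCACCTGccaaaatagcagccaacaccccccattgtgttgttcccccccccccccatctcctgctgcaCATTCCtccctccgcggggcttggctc
The Myh4 window held 2 E-boxes, 1 M-CAT element, 3 TATA boxes of which 1 overlapped the MEF2 match, 1 MEF2 match and 1 CArG box. The Tnnt2 window held 4 E-boxes and 1 M-CAT element, its second start held 1 E-box, and none of these letters were found in the Myh2 window. Of 32851 mouse promoter windows of the same length, 66.2% held an E-box, 12.6% an M-CAT element, 12.4% a TATA box, 2.92% a MEF2 match and 1.47% a CArG box. Among 41 windows of the 34 members with an entry, the shares were 82.9%, 26.8%, 14.6%, 9.76% and 9.76% in the same order. These matches are letters in a window, not sites shown to be bound.

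Library totals ran from 7903288 counts in wild-type tumor 4 to 268564145 counts in the tumor 4 labelled ΔAgo2, so low genes are measured far less precisely in the first. Levels are given as CPM, that is, counts brought to 1 shared library size with totals adjusted by the trimmed mean of M values (TMM). The Ago2 transcript did not check the labels, since it was at 129.9 to 195.0 CPM in wild-type tumors and at 118.3 to 354.7 CPM in those labelled ΔAgo2, with an adjusted p of 0.205 in edgeR. The paper quantified Ago2 protein in the LLC ΔAgo2 cells by Western blot, and the transcript level does not speak to the protein. Wild-type tumor 3 stood apart before any comparison. Its skin keratinocyte markers summed to 19.0 CPM against 208.4 to 654.3 CPM in the other wild-type tumors and 572.1 to 1076.5 CPM in the tumors labelled ΔAgo2. Its adipocyte markers summed to 484.8 CPM, near the 542.6 CPM of the tumor 1 labelled ΔAgo2. The other 6 tumors were at 78.8 to 184.5 CPM. These large sums were made up differently, with Car3 at 172.1 and 40.5 CPM and Cfd at 124.7 and 250.4 CPM, respectively.

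Wild-type tumor 3 held most of the muscle RNA of the series. The 42 genes summed to 486.5, 628.2, 5779.9 and 824.5 CPM in wild-type tumors 1 to 4 and to 393.5, 116.7, 404.3 and 322.1 CPM in tumors 1 to 4 labelled ΔAgo2. They made up 0.583% of all counts of wild-type tumor 3 and 0.0125% to 0.0728% of the counts of the other libraries. The sum in wild-type tumor 3 was 14.3 times the median of the other 7, and even without it each wild-type sum lay above each sum labelled ΔAgo2. In bulk samples such as these, fewer muscle fibers and less of these RNAs per fiber cannot be told apart.

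Of the 37 members with enough counts to be tested, wild-type tumor 3 was the highest of the 8 libraries for 34, against 10.8% of all 16061 tested genes. For 26 of the 37 it was at least 4 times the highest other library, against 0.679% of tested genes, which is 109 genes. Another 32 of those 109 genes were in a list of 64 other striated muscle genes. The tumor 2 labelled ΔAgo2 stood at the other end and was the lowest library for 30 of 37 members, against 18.1% of tested genes.

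**Figure D1:**
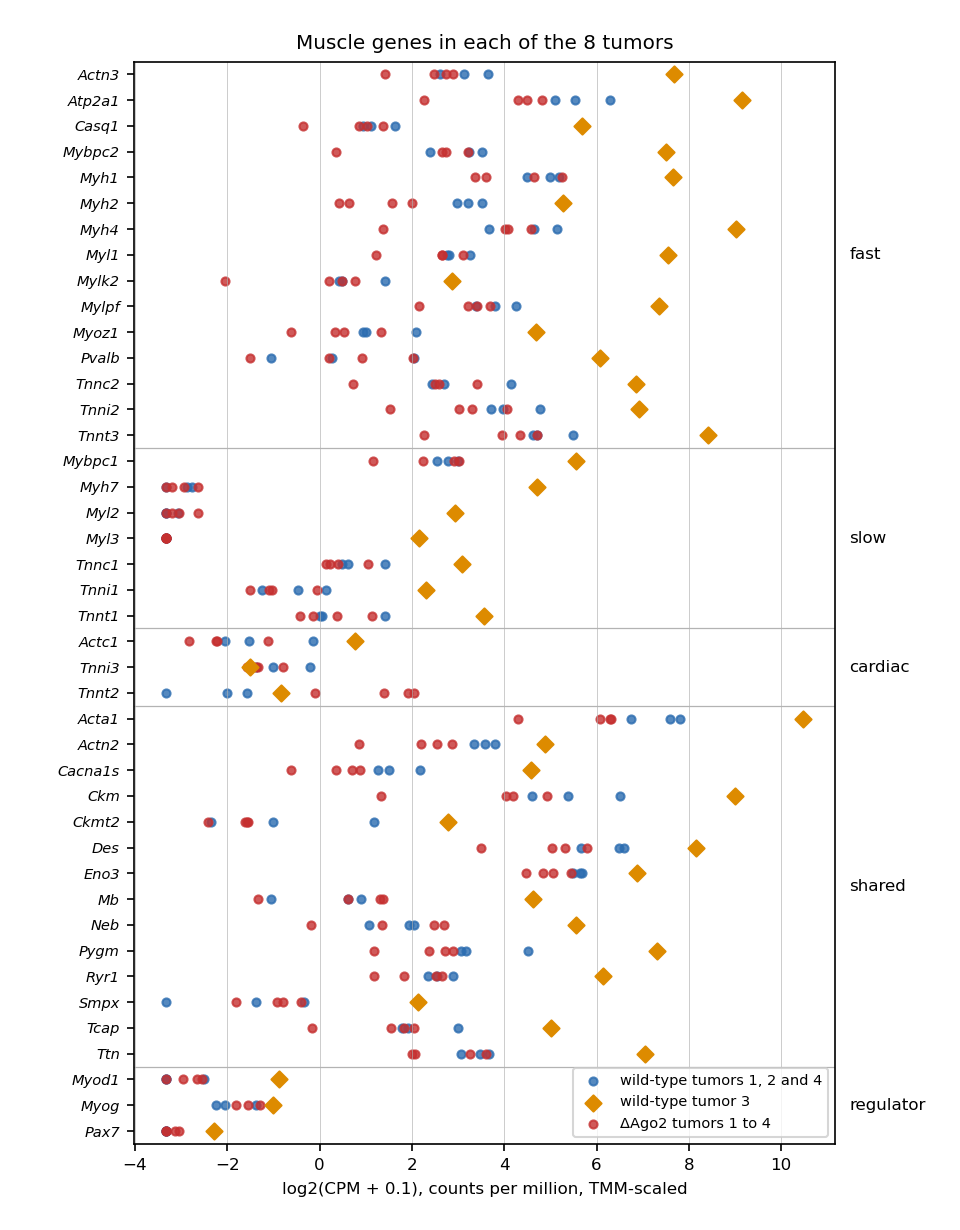
Level of each of the 42 muscle genes in each tumor, as log2(CPM + 0.1), grouped by isoform class; each point is 1 tumor. Wild-type tumor 3 (diamonds) lies to the right of all other tumors for 39 of the 42 genes, and the exceptions are Tnnt2, Tnni3 and Myog.

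The excess in wild-type tumor 3 was not even across the isoform classes. Over the median of the other 7 tumors, fast genes were higher by a median of 19.6-fold (range 5.55 to 60.7 over 15 genes), shared genes by 13.3-fold (2.7 to 28.3 over 14 genes), and the 3 cardiac genes stood at 0.845-fold (0.555 to 11.1). Of the cardiac genes, Actc1 was at 11.1-fold, Tnni3 at 0.845-fold and Tnnt2 at 0.555-fold. That median includes the tumors labelled ΔAgo2, in which Tnnt2 was higher. Among wild-type tumors alone Tnnt2 was highest in tumor 3, at 0.462 CPM against 0 to 0.238 CPM. Slow genes had a median of 12.5-fold over the 6 that can be expressed so, but they fell into separate kinds. Tnnt1, Tnni1, Tnnc1 and Mybpc1 were present in all tumors and were 6.49 to 12.6 times the other tumors' median in wild-type tumor 3, whereas Myh7, Myl2 and Myl3 were almost confined to it.

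Parvalbumin (Pvalb), the calcium buffer of the fastest fibers, differed most among the fast genes. In wild-type tumors 1 to 4 it was at 1.11, 0.381, 67.2 and 4.01 CPM, and at 3.98, 0.254, 1.79 and 1.06 CPM in tumors 1 to 4 labelled ΔAgo2. Myl1, the fast essential light chain, was at 9.5, 6.63, 185.8 and 6.88 CPM and at 6.15, 2.25, 8.57 and 6.15 CPM in the same order. Wild-type tumor 3 was far above every other tumor for both, and the other 3 wild-type tumors overlapped those labelled ΔAgo2. Calsequestrin 1 (Casq1), which stores calcium in the sarcoplasmic reticulum, followed the same order, at 51.1 CPM in wild-type tumor 3, 1.81 to 3.01 CPM in the other wild-type tumors and 0.676 to 2.5 CPM in those labelled ΔAgo2.

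Myh7, the slow heavy chain, had 2, 1, 1245 and 0 counts in wild-type tumors 1 to 4 and 3, 1, 1 and 0 counts in tumors 1 to 4 labelled ΔAgo2. Myl2, the slow and ventricular regulatory light chain, had 1, 0, 357 and 0 counts and 3, 1, 0 and 6 counts. Myl3, the slow and ventricular essential light chain, had 207 counts in wild-type tumor 3 and 0 in each of the other 7. These 3 slow genes were thus read in quantity in 1 tumor alone. Against the 3 counts that a count of 0 allows per library, Myl3 was at least 10.1-fold higher in wild-type tumor 3 than in wild-type tumor 4, the shallowest library, and at least 414.3-fold higher than in the deepest. Such limits cover counting error only. None of these genes was tested, because none reached the count minimum in enough libraries.

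**Figure D2:**
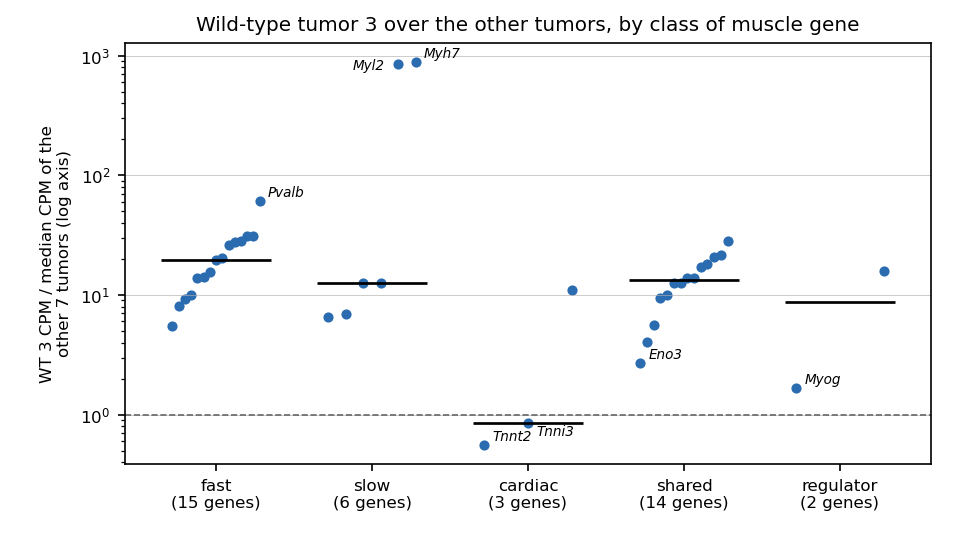
Ratio of the CPM in wild-type tumor 3 to the median CPM of the other 7 tumors (log axis), for the 40 members whose median is above 0; points are genes, bars are class medians and the dashed line marks equal levels. Fast, slow and shared genes lie above the line, Tnnt2 and Tnni3 lie below it, and the ratios of Myh7 and Myl2 rest on 0 to 6 counts in the other tumors.

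Between genotypes, 1 muscle gene fell and 1 rose past the test. Myh2, the heavy chain of fast oxidative fibers, was lower in tumors labelled ΔAgo2, and Tnnt2, the heart-type troponin T, was higher. The comparison used edgeR's quasi-likelihood test over 16061 genes with Benjamini-Hochberg adjustment at 0.05, and a log2 fold change is the tumors labelled ΔAgo2 against wild-type, with its standard error (SE). Of 37 tested members, 2 passed where 3.49% of all genes did, 1 as lower where 2.12% did and 1 as higher where 1.36% did. Without wild-type tumor 3, the same 2 genes passed, where 5.68% of 16431 tested genes did, 3.48% as lower and 2.21% as higher. In both fits the number of members that passed was thus near that of genes in general. Other settings counted more members as lower. DESeq2 called 14 of the 23 members that it gave an adjusted p, where 6.56% of genes were called lower. By default it gives no p to genes with an outlying count. Myh1, Myh4, Myl1, Actn3, Ttn and Tnnt3, all far above the rest in wild-type tumor 3, had none, so the 23 are a selected part of the members. EdgeR with no count filter called 21 of 42, where 1.54% were, and limma voom called 7 of 37, where 13.0% were. Each call also depended on single libraries, as given beside each gene.

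The fitted change of the remaining members depended on wild-type tumor 3. With all 8 tumors, 35 of 37 members had a log2 fold change below 0, against 47.5% of tested genes, with a median of -2.38 against 0.04 for all genes. Without wild-type tumor 3, 31 of 37 were below 0, against 46.1%, and the median was -0.63 against 0.07. An unadjusted p under 0.05 was reached by 31 of 37 members with all tumors, against 26.7% of genes, and by 10 of 37 without wild-type tumor 3, against 30.2%. The change of sign concerned Neb, Smpx, Pvalb and Mb, at 0.19, 0.11, 0.09 and 0.45 on the log2 scale without that tumor. By class, the median moved from -2.84 to -0.70 for the 15 fast genes, from -1.72 to -0.32 for the 4 tested slow genes, from -2.26 to -0.99 for the 14 shared genes and from -0.39 to -0.62 for the 3 cardiac genes.

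**Figure D3:**
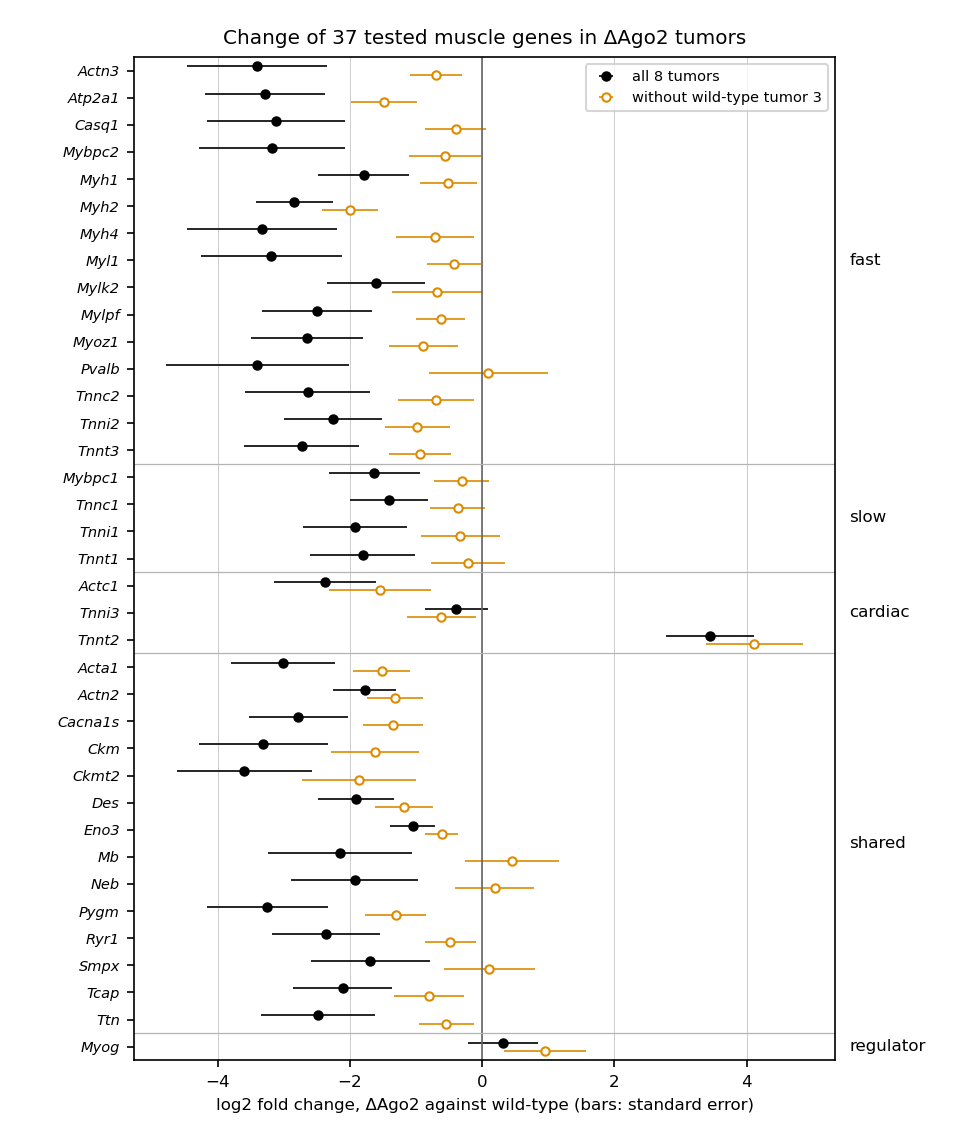
Log2 fold change (tumors labelled ΔAgo2 against wild-type) with its standard error for the 37 tested members, from all 8 tumors (filled) and without wild-type tumor 3 (open). Most genes move toward 0 without that tumor, Myh2 stays at -2.00 and Tnnt2 goes from 3.45 to 4.12.

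Groups without overlap were found for 8 of 37 members with all tumors, against 16.4% of tested genes, and for 8 of 37 without wild-type tumor 3, against 24.0%. Without that tumor the count in either direction was near that of genes in general. In both cases 7 were lower in every tumor labelled ΔAgo2, where 8.36% and 11.2% of tested genes were, and 1, Tnnt2, was higher, where 8.05% and 12.8% were. The 7 lower genes were Acta1, Myh2, Actn2, Atp2a1, Cacna1s, Eno3 and Pygm. Wild-type tumor 3 did not set this order, since the other 3 wild-type tumors also lay above all 4 labelled ΔAgo2.

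Among the heavy chains, Myh2 (chr11:67171027-67197517, + strand, GRCm38) had levels of 9.2, 11.3, 38.7 and 7.74 CPM across wild-type tumors 1 to 4 and of 1.46, 1.23, 3.91 and 2.87 CPM in tumors 1 to 4 labelled ΔAgo2. The groups did not overlap. The log2 fold change was -2.84 (SE 0.58, adjusted p 0.0305 in edgeR), and without wild-type tumor 3 it was -2.00 (SE 0.42, adjusted p 0.0345). The adjusted p rose to 0.0679 without wild-type tumor 2 and to 0.0893, 0.0515 and 0.0923 without tumors 2, 3 and 4 labelled ΔAgo2. In limma on TPM, the counts per length scaled to a common total, it was 0.124 to 0.277 by pseudocount and filter.

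Myh1 and Myh4, the fast heavy chains that lie beside Myh2, did not pass. Myh1 was at 36.5, 31.6, 200.8 and 22.5 CPM in wild-type tumors and at 10.2, 12.0, 38.0 and 24.8 CPM in tumors labelled ΔAgo2, with a log2 fold change of -1.79 (SE 0.69, adjusted p 0.138 in edgeR) that was -0.51 (SE 0.43) without wild-type tumor 3. Myh4 was at 24.8, 12.7, 520.9 and 35.4 CPM and at 16.0, 2.5, 23.9 and 16.9 CPM, with -3.33 (SE 1.13, adjusted p 0.108 in edgeR) and then -0.71 (SE 0.59). Leaving out wild-type tumor 3, the wild-type values of both overlapped those labelled ΔAgo2. Exons of Myh1, Myh2 and Myh4 are alike in sequence, and how reads matching several places were counted is not given in the sources used here, so the split among them is uncertain.

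As a share of the counts of Myh1, Myh2, Myh4 and Myh7, Myh2 made up 13.0% (95% Wilson interval 12.0 to 14.2), 20.2% (18.0 to 22.6), 4.92% (4.71 to 5.14) and 11.8% (9.15 to 15.1) in wild-type tumors 1 to 4. Among those labelled ΔAgo2, tumors 1 to 4, it made up 5.26% (4.19 to 6.58), 7.81% (6.66 to 9.15), 5.94% (5.03 to 7.01) and 6.44% (6.03 to 6.88). Wild-type tumor 3 thus lay below all tumors labelled ΔAgo2 in this share, though within the interval of the first, and the other 3 wild-type tumors lay above them. Myh4 held 66.2% of the heavy chain counts in wild-type tumor 3 and 15.9% to 57.9% elsewhere, with no order between the groups. Myh7 held 3.33% (3.15 to 3.51) in wild-type tumor 3 and up to 0.222% in the 5 other tumors in which it was read, while the 0 of 458 counts in wild-type tumor 4 allows up to 0.655%. Per length, as a share of the TPM of the 4 genes, Myh2 held 10.3% to 18.2% in wild-type tumors 1, 2 and 4, 4.28% in wild-type tumor 3 and 4.58% to 6.95% in those labelled ΔAgo2.

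Tnnt2 (chr1:135836354-135852260, + strand, GRCm38) went the other way. In wild-type tumors 1 to 4 its levels were 0.15, 0.238, 0.462 and 0 CPM, from 8, 5, 22 and 0 counts, and 3.69, 0.833, 4.03 and 2.52 CPM in tumors 1 to 4 labelled ΔAgo2, from 180, 95, 135 and 720 counts. Every tumor labelled ΔAgo2 was above every wild-type tumor, although the 0 of the shallow wild-type tumor 4 allows up to 0.43 CPM. The log2 fold change was 3.45 (SE 0.67, adjusted p 0.0244 in edgeR), and without wild-type tumor 3 it was 4.12 (SE 0.74, adjusted p 0.0216). The adjusted p rose to 0.0923 without wild-type tumor 2, to 0.0682 and 0.0698 without tumors 3 and 4 labelled ΔAgo2, and to 0.0848 with the replicate number as a block. At these levels the gene was removed by a minimum of 10 counts in every library, and in limma on TPM with no filter its adjusted p was 0.128. In TPM, it reached 0.39 to 1.64 in the tumors labelled ΔAgo2 and 0 to 0.17 in wild-type tumors, so it was a low transcript in all 8.

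The other troponin T genes did not share this order. Tnnt3, the fast form, was at 26.0, 24.7, 341.8 and 44.7 CPM in wild-type tumors and at 26.0, 4.73, 20.1 and 15.3 CPM in tumors labelled ΔAgo2, with a log2 fold change of -2.73 (SE 0.87, adjusted p 0.0958 in edgeR) and of -0.94 (SE 0.47) without wild-type tumor 3. Tnnt1, the slow form, was at 0.937, 0.906, 11.8 and 2.58 CPM and at 2.09, 0.649, 1.19 and 0.805 CPM, with -1.81 (SE 0.79, adjusted p 0.176 in edgeR) and then -0.21 (SE 0.56). Both were highest in wild-type tumor 3, and the remaining wild-type values overlapped those labelled ΔAgo2.

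Of the counts of the 3 troponin T genes, Tnnt2 made up 0.554% (95% Wilson interval 0.281 to 1.09), 0.923% (0.395 to 2.14), 0.131% (0.0863 to 0.198) and 0% in wild-type tumors 1 to 4, where the 0 of 330 counts allows up to 0.909%. In tumors 1 to 4 labelled ΔAgo2 it made up 11.6% (10.1 to 13.3), 13.4% (11.1 to 16.1), 15.9% (13.6 to 18.5) and 13.5% (12.6 to 14.4). The share in tumors labelled ΔAgo2 thus stayed between 11.6% and 15.9% while their Tnnt3 level ranged from 4.73 to 26.0 CPM. Tnnt3 held 94.5% to 96.5% of troponin T counts in wild-type tumors and 76.1% to 82.2% in the others. Shares of counts give more weight to longer genes, and the annotated exons of Tnnt2 cover 7752 bases against 1583 for Tnnt3. Per length, as a share of the TPM of the 3 genes, Tnnt2 held 0% to 0.197% in wild-type tumors and 2.69% to 3.78% in those labelled ΔAgo2, and Tnnt3 held 96.0% to 97.6% and 88.2% to 93.3%. Wild-type tumor 3, with the most muscle RNA, had the lowest Tnnt2 share of the 3 wild-type tumors in which the gene was read. That share was low against a Tnnt3 level of 341.8 CPM, since its Tnnt2 level, 0.462 CPM, was the highest of the wild-type tumors.

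**Figure D4:**
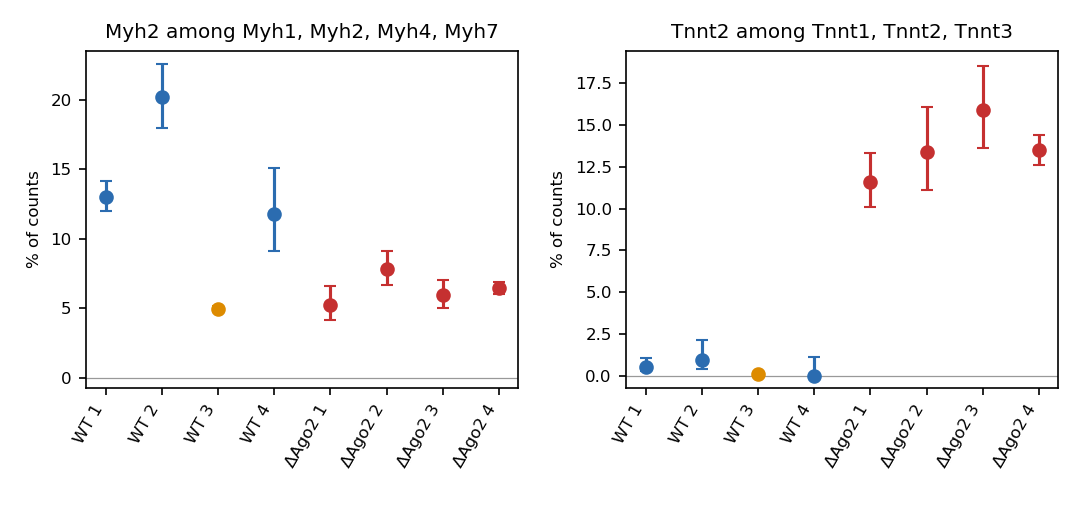
Share of counts held by Myh2 among 4 myosin heavy chain genes (left) and by Tnnt2 among 3 troponin T genes (right) in each tumor, with 95% Wilson intervals that cover counting error only. Tnnt2 is under 1% in each wild-type tumor and between 11.6% and 15.9% in the tumors labelled ΔAgo2, and Myh2 in wild-type tumor 3 (4.92%) lies below all the others, within the interval of the tumor 1 labelled ΔAgo2.

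Several genes of the heart chambers were at or near 0 in these tumors. Nppa, the atrial natriuretic peptide, had 0 counts in all 8 libraries. Myh6, a heavy chain of the heart, was at most at 0.0205 CPM and Myl7 at most at 0.028 CPM. The heart transcription factor Nkx2-5 was at most at 0.0205 CPM. Of the 12 heart genes listed, 4 were tested and 1 passed as lower, where 2.12% of all genes did. It was Tbx5, a transcription factor of heart and forelimb, with a log2 fold change of -4.65 (SE 0.73, adjusted p 0.01 in edgeR). The list was not near 0 as a whole, since it summed to 14.3 to 24.9 CPM in wild-type tumors and to 18.3 to 21.8 CPM in the others, mostly from Gata4, at 12.9 to 23.1 CPM, and wild-type tumor 3 had the lowest sum. Skin keratinocyte markers moved in the same direction as Tnnt2, with 14 of 14 above 0 and a median log2 fold change of 1.60, or 13 of 14 and 1.20 without wild-type tumor 3. Of these, Krt10, at 2.06 (SE 0.48, adjusted p 0.046 in edgeR), and Flg2, at 2.41 (SE 0.55, adjusted p 0.0437), passed in either set. Among all genes, 1.36% passed as higher with all tumors and 2.21% without wild-type tumor 3. An unadjusted p under 0.05 was reached by 6 of the 14, all higher, against 26.7% of all genes in either direction. Without wild-type tumor 3 it was reached by 9, against 30.2%. DESeq2 called 5 as higher where 6.52% of genes were, and limma voom called 7 where 14.9% were. The part of the skin markers in the Tnnt2 result was not tested. No other annotated gene shares exon bases with Tnnt2.

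Actc1, the actin of the heart, was low and highest in wild-type tumor 3, at 0.244, 0.810, 1.6 and 0.143 CPM in wild-type tumors and at 0.041, 0.114, 0.358 and 0.112 CPM in tumors labelled ΔAgo2. Its log2 fold change was -2.38 (SE 0.77, adjusted p 0.0988 in edgeR) and -1.55 (SE 0.77) without wild-type tumor 3. Its coding sequence is nearly that of Acta1, which had 99.4% to 99.9% of the actin counts of the pair in every tumor, so its own level is uncertain. Tnni3, the heart-type troponin I, was at 0.394, 0.763, 0.252 and 0.287 CPM and at 0.287, 0.474, 0.298 and 0.235 CPM, with -0.39 (SE 0.48, adjusted p 0.613 in edgeR). Like Tnnt2, it was below the median of the other tumors in wild-type tumor 3. Among wild-type tumors alone, Tnni3 was lowest in tumor 3, whereas Tnnt2 was highest there, at 0.462 CPM. Tnni3 shares 86 exon bases on the same strand with Dnaaf3, which was at 1.64 to 5.45 CPM, and how reads in the shared bases were counted is not given in the sources used here.

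The fast and slow forms of troponin I and C had the same order, with wild-type tumor 3 highest and the tumor 2 labelled ΔAgo2 lowest. Tnni2, the fast troponin I, was at 13.1, 15.6, 121.9 and 27.1 CPM in wild-type tumors and at 16.7, 2.78, 9.79 and 8.05 CPM in tumors labelled ΔAgo2, with a log2 fold change of -2.26 (SE 0.74, adjusted p 0.101 in edgeR). Tnni1, the slow form, was at 0.319, 0.620, 4.83 and 1.0 CPM and at 0.862, 0.254, 0.388 and 0.368 CPM, with -1.92 (SE 0.79, adjusted p 0.156 in edgeR). Without wild-type tumor 3 these became -0.98 (SE 0.49) and -0.33 (SE 0.60), and in neither gene were the groups apart.

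Tnnc2, the fast troponin C, was at 6.37, 5.34, 115.7 and 17.6 CPM in wild-type tumors and at 10.6, 1.54, 5.52 and 5.9 CPM in those labelled ΔAgo2, with a log2 fold change of -2.64 (SE 0.95, adjusted p 0.12 in edgeR). Tnnc1, the slow and heart form, was at 1.29, 1.43, 8.39 and 2.58 CPM and at 1.97, 1.0, 1.22 and 1.07 CPM, with -1.41 (SE 0.59, adjusted p 0.163 in edgeR). Both overlapped between groups. Tnnc1 made up 6.76% (95% Wilson interval 6.15 to 7.43) of troponin C counts in wild-type tumor 3, the lowest share of the 8, and 39.3% (33.9 to 45.0) in the tumor 2 labelled ΔAgo2, the highest. Tnnc2 shares 592 exon bases with Ube2c, a cell division gene on the opposite strand at 84.6 to 242 CPM, and whether counting used strand is not given in the sources used here.

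Thick filament light chains and binding proteins held the same pattern as the fast heavy chains. Mylpf, the fast regulatory light chain, was at 164.1 CPM in wild-type tumor 3, 10.4 to 18.9 CPM in the other wild-type tumors and 4.32 to 12.8 CPM in those labelled ΔAgo2. Mybpc2, the fast myosin binding protein C, was at 181.6, 5.15 to 11.3 and 1.18 to 9.22 CPM in the same order, and Mybpc1, the slow form, at 47.2, 5.73 to 7.91 and 2.12 to 7.97 CPM. Mylk2, the kinase of the regulatory light chain in skeletal muscle, was at 7.15, 1.24 to 2.58 and 0.14 to 1.6 CPM. For these 4 genes the adjusted p in edgeR was 0.102, 0.111, 0.165 and 0.193, and apart from wild-type tumor 3 the groups overlapped. Mybpc1 made up 20.6% of the binding protein C counts in wild-type tumor 3 and 33.6% to 64.4% elsewhere.

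Actin and alpha-actinin 2 were among the genes whose groups stayed apart. Acta1, the skeletal actin of the thin filament, was at 106.8, 193.4, 1428.9 and 223.3 CPM in wild-type tumors and at 78.9, 19.5, 77.8 and 66.9 CPM in tumors labelled ΔAgo2. Its log2 fold change was -3.01 (SE 0.79, adjusted p 0.0628 in edgeR) and -1.52 (SE 0.43, adjusted p 0.0605) without wild-type tumor 3, so it missed the threshold in both. It was also the most abundant member per length, at 2680.4 TPM in wild-type tumor 3, 198.3 to 358.6 TPM in the other wild-type tumors and 46.4 to 159.7 TPM in those labelled ΔAgo2.

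Actn2, the alpha-actinin of all fibers and of heart, was at 11.9, 13.8, 29.6 and 10 CPM in wild-type tumors and at 4.49, 1.7, 7.25 and 5.76 CPM in tumors labelled ΔAgo2. Its log2 fold change was -1.78 (SE 0.47, adjusted p 0.0625 in edgeR) and -1.32 (SE 0.42, adjusted p 0.0777) without wild-type tumor 3. In wild-type tumor 3 it was 2.15 times the next library, among the smallest ratios of the genes highest there. Actn3, the fast alpha-actinin, was at 204.7 CPM in wild-type tumor 3, 6.01 to 12.5 CPM in the other wild-type tumors and 2.59 to 7.37 CPM in those labelled ΔAgo2, with -3.41 (SE 1.06, adjusted p 0.0906 in edgeR). Of the alpha-actinin counts of the pair, Actn2 thus made up 12.6% (95% Wilson interval 12.0 to 13.3) in wild-type tumor 3, 44.6% to 69.6% in the other wild-type tumors and 39.7% to 51.1% in those labelled ΔAgo2.

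The proteins of the Z-disc and the giant scaffolds did not pass in either set. Titin (Ttn) was at 132.0 CPM in wild-type tumor 3, 8.31 to 12.6 CPM in the other wild-type tumors and 3.9 to 12.1 CPM in those labelled ΔAgo2, and nebulin (Neb) at 47.2, 2.01 to 4.0 and 0.780 to 6.4 CPM. Tcap, the titin cap, was at 32.3, 3.34 to 7.88 and 0.798 to 4.04 CPM, and Myoz1, a calcineurin-binding Z-disc protein of fast fibers, at 25.8, 1.82 to 4.16 and 0.553 to 2.42 CPM. All 4 genes overlapped between groups once wild-type tumor 3 was set aside. Smpx, a small muscle protein, was at 4.27 CPM in wild-type tumor 3, 0 to 0.693 CPM in the other wild-type tumors and 0.184 to 0.662 CPM in those labelled ΔAgo2. Desmin (Des), the intermediate filament of muscle, was at 284.9, 50.3 to 96.4 and 11.2 to 55.5 CPM, with a log2 fold change of -1.91 (SE 0.57, adjusted p 0.0826 in edgeR) and -1.18 (SE 0.44, adjusted p 0.109) without that tumor.

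Of the calcium-handling genes, Atp2a1 and Cacna1s had groups that did not overlap. Atp2a1, the calcium pump of fast fibers, was at 34.1, 46.4, 569.7 and 77.7 CPM in wild-type tumors and at 22.3, 4.69, 28.0 and 19.6 CPM in tumors labelled ΔAgo2, with a log2 fold change of -3.29 (SE 0.91, adjusted p 0.07 in edgeR) and -1.49 (SE 0.50, adjusted p 0.084) without wild-type tumor 3. Cacna1s, the voltage sensor of the skeletal calcium channel, was at 2.72, 4.39, 24.0 and 2.29 CPM and at 1.17, 0.553, 1.73 and 1.52 CPM, with -2.78 (SE 0.75, adjusted p 0.0665 in edgeR) and -1.35 (SE 0.45, adjusted p 0.0823). Neither passed. Ryr1, the calcium release channel that Cacna1s opens, was at 70.2 CPM in wild-type tumor 3, 5.02 to 7.34 CPM in the other wild-type tumors and 2.17 to 6.15 CPM in those labelled ΔAgo2, and those groups overlapped without that tumor. Atp2a1 shares 763 exon bases with Rabep2 on the opposite strand. Rabep2 was at 22.5 to 43.7 CPM in wild-type tumors and 16.0 to 19.3 CPM in those labelled ΔAgo2, the same order of groups as for Atp2a1. Wild-type tumors 1, 2 and 4 also kept the order of Atp2a1. Tumors 1 to 4 labelled ΔAgo2 did not, with Rabep2 at 16.0, 18.7, 19.3 and 18.1 CPM. The part of Rabep2 in the Atp2a1 values was not tested.

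In energy metabolism, the groups of Pygm and Eno3 did not overlap. Pygm, the muscle glycogen phosphorylase, was at 8.26, 8.96, 158.5 and 22.6 CPM in wild-type tumors and at 6.52, 2.18, 7.34 and 5.07 CPM in tumors labelled ΔAgo2, with a log2 fold change of -3.25 (SE 0.91, adjusted p 0.0717 in edgeR) and -1.31 (SE 0.46, adjusted p 0.0974) without wild-type tumor 3. Eno3, the muscle enolase of glycolysis, was at 44.6, 50.1, 117.2 and 51.0 CPM and at 43.4, 22.1, 33.0 and 28.4 CPM, with -1.05 (SE 0.34, adjusted p 0.097 in edgeR) and -0.61 (SE 0.25, adjusted p 0.138). Eno3 had the smallest excess in wild-type tumor 3 of the 14 shared genes, 2.7 times the median of the other tumors.

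Ckm, the cytosolic creatine kinase, was at 24.3, 41.8, 509.1 and 90.4 CPM in wild-type tumors and at 30.5, 2.43, 18.2 and 16.3 CPM in those labelled ΔAgo2, with an adjusted p of 0.0826 in edgeR. Ckmt2, its mitochondrial partner, was at 0.394, 0.0953, 6.73 and 2.15 CPM and at 0.226, 0.0877, 0.239 and 0.238 CPM, with an adjusted p of 0.0733. Both spread widely within the wild-type group and overlapped the other group. Myoglobin (Mb), the oxygen store of oxidative fibers, was at 24.7 CPM in wild-type tumor 3, 0.381 to 1.76 CPM in the other wild-type tumors and 0.298 to 2.5 CPM in those labelled ΔAgo2, and its log2 fold change went from -2.15 (SE 1.09) to 0.45 (SE 0.71) without that tumor.

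The regulators of muscle precursors were near the limit of counting. Myog, which drives myoblast differentiation, was at 0.112, 0.143, 0.399 and 0.287 CPM in wild-type tumors and at 0.308, 0.184, 0.239 and 0.406 CPM in tumors labelled ΔAgo2, from 2 to 116 counts, with a log2 fold change of 0.31 (SE 0.53, adjusted p 0.725 in edgeR). Myod1, the factor that commits cells to muscle, had 4, 0, 21 and 0 counts and 0, 8, 2 and 8 counts, and Pax7, the factor of muscle stem cells, had 0, 0, 5 and 0 counts and 1, 0, 0 and 4 counts. Myog overlapped between groups and was not raised in wild-type tumor 3 above the tumor 4 labelled ΔAgo2. The level of Myod1 was highest in wild-type tumor 3, and neither Myod1 nor Pax7 had enough counts to be tested.

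Per length, fast and shared genes made up nearly all of the muscle RNA in every tumor. Of the summed TPM of the 42 genes, fast members held 46.0% in wild-type tumor 3, 26.0% to 37.7% in the other wild-type tumors and 34.4% to 40.7% in those labelled ΔAgo2. Slow members held 1.31%, 1.21% to 1.64% and 2.09% to 3.46% in the same order, so each tumor labelled ΔAgo2 had a larger slow share than each wild-type tumor. Cardiac members held 0.0447%, 0.0578% to 0.317% and 0.337% to 0.781%. The summed TPM itself was 7517.5 in wild-type tumor 3 and 609.8 to 810.9 in the other wild-type tumors. In those labelled ΔAgo2 it was 190.9 to 540.6, so their larger slow share was of a smaller sum. The 4 tested slow genes were not higher in those tumors. Their log2 fold changes were -1.92 to -1.41, and -0.37 to -0.21 without wild-type tumor 3. Myh7, Myl2 and Myl3 were at 8.75, 11.09 and 6.13 TPM in wild-type tumor 3 and at 0 to 0.07 TPM in those labelled ΔAgo2.

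Outside the 42 genes, other striated muscle genes gave the same picture. Of 64 in the list, 53 were tested, 51 had a log2 fold change below 0, 4 passed as lower, where 2.12% of all genes did, and 0 as higher in edgeR, with a median of -1.96. At an unadjusted p under 0.05, 39 were lower and 0 higher, where 26.7% of all genes were in either direction. DESeq2, which gives no p to genes with an outlying count, called 19 lower, where 6.56% of genes were, and 0 higher. Limma voom called 8 lower, where 13.0% were, and 0 higher, so the voom count is near that of genes in general. Without wild-type tumor 3, 44 were below 0, 2 passed as lower, where 3.48% of all genes did, and 0 as higher in edgeR, with a median of -0.63, the same as that of the members. At an unadjusted p under 0.05 there were then 12 lower and 2 higher, near the 30.2% of all genes in either direction. The 3 with the largest change among those that passed were Klhl40, a stabilizer of thin filament proteins, at -2.43 (SE 0.53, adjusted p 0.0377 in edgeR), Mybph, a myosin binding protein, at -2.02 (SE 0.49, adjusted p 0.0492), and Ankrd2, a stress-responsive muscle protein, at -1.95 (SE 0.44, adjusted p 0.0395). Klhl40 was at 1.82, 3.62, 9.33 and 4.16 CPM in wild-type tumors and at 1.05, 0.395, 1.01 and 1.09 CPM in the others, which did not overlap. Klhl40 also passed without wild-type tumor 3, with -1.82 (SE 0.46, adjusted p 0.0481).

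Lists of other cell types were counted alongside. Among all genes, 26.7% had an unadjusted p under 0.05 in either direction, 2.12% passed as lower in edgeR and 1.36% as higher. DESeq2 called 6.56% lower and 6.52% higher, and limma voom 13.0% and 14.9%. Without wild-type tumor 3, 3.48% passed as lower in edgeR. Of 15 smooth muscle and pericyte markers, 12 were below 0 with a median of -0.80 and 0 passed in edgeR, although 6 had an unadjusted p under 0.05 and DESeq2 called 2 and limma voom 6 as lower, and without wild-type tumor 3 there were 8 below 0, a median of -0.04 and 1 that passed, Smtn, at -0.98 (SE 0.24, adjusted p 0.0427 in edgeR). Adipocyte markers had a median of -0.24 over 13 tested genes and Schwann cell and nerve markers of -0.28 over 5, with 0 past the threshold in edgeR. At an unadjusted p under 0.05 there were 0 adipocyte markers and 1 nerve marker, DESeq2 called 0 of either, and limma voom called 2 adipocyte markers lower and 1 nerve marker higher. Fibroblast markers summed to 4972.8 to 7326.0 CPM in wild-type tumors and 2377.3 to 4789.5 CPM in those labelled ΔAgo2, mostly from Col3a1, a fibrillar collagen, at 3761.6 to 5750.7 CPM and 1407.1 to 3700.8 CPM. Of the 10 markers, 6 were below 0, with a median of -0.67, and 1, Fap, passed as lower, at -1.52 (SE 0.32, adjusted p 0.0329 in edgeR). At an unadjusted p under 0.05, 5 were lower and 2 higher, DESeq2 called 3 lower and 0 higher, and limma voom 4 lower and 2 higher. Dpt, a matrix protein, had its levels in the other order, at 71.5 to 98.2 CPM in wild-type tumors and 99.4 to 144.2 CPM in those labelled ΔAgo2. Endothelial markers had a median of -0.23, and 1 of 10, Vwf, passed as lower, at -1.09 (SE 0.26, adjusted p 0.0466 in edgeR), where 2 were lower at an unadjusted p under 0.05 and DESeq2 and limma voom called 1 each. The fibroblast sums, though not each of their genes, moved in the same direction as the muscle sums, and their part in the muscle differences was not tested.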

How the data were processed

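Total RNA of 8 tumors was sequenced as stranded paired-end mRNA libraries, per the labels. Deposited by the authors were unnormalized whole-number read counts of each gene and, as a second table, TPM values, in which counts are taken per length and every library adds up to the same sum. The build is mm10 (GRCm38). The labels also name STAR, and the methods name featureCounts for cultured cells; for these tumors the annotation release, the strand setting and the handling of reads matching several places are not given in the sources used here. Of 55487 identifiers, 55094 (99.29%) matched GENCODE M21 with their version, and Mybpc1 and Neb matched on the stable part alone.

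Counts were filtered with filterByExpr, scaled by TMM and tested with edgeR 4.0.16 (quasi-likelihood, no covariate, R 4.3.3), with Benjamini-Hochberg adjustment over all genes tested at 0.05. The fit was repeated without wild-type tumor 3. The 4 replicates of a group are labelled as biological replicates and were taken to be tumors of separate mice. Intervals are 95% Wilson intervals from scipy 1.17.1 and, like limits from a count of 0 (3 counts), cover counting error only, since reads carry no molecular identifiers. Alternatives were DESeq2 1.42.0, limma 3.58.1 on voom values or log2 TPM, other filters, thinned counts, a GC offset, the replicate block and leaving out each library. The procedure was tested on simulated counts. Apart from the mention of their Western blot, the authors' other experiments were not used here.

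All 42 members are accounted for. Values in every library were given for members past the threshold in either fit, the 5 largest and 5 smallest ratios of wild-type tumor 3 to the highest other library, the troponins, the myosin heavy chains and the regulators, and for the other 5 members whose groups did not overlap, with both creatine kinases, which were added after their values were seen. From other lists, up to 3 called genes per direction were named. Members and lists were chosen with earlier results of these data known.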

Additional observations from a re-analysis of the deposited data

Results flagged for a closer look

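In groups of 4 tumors, a highest or lowest value was set aside for a closer look where its gap to the nearest other value exceeded Dixon's 95% critical value for 4 samples, as a share of the group's range. Of 84 such groups, 34 were marked, and 33 of the 34 were wild-type tumor 3. A chance rate of about 1 in 20, or 4.2 groups, presumes normally distributed values, which these CPM need not be. The groups are related genes in the same tumors, not separate trials, and the genes were listed with earlier results known. A gene read in only 1 tumor of a group is marked at any level, as Myl3 and Pax7 were in wild-type tumor 3. The number of marks therefore cannot be weighed against chance. Values are CPM of wild-type tumor 3, above the other 3 wild-type tumors.

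The myosin genes marked were Myh1 at 200.8, Myh2 at 38.7, Myh4 at 520.9, Myh7 at 26.2, Myl1 at 185.8, Myl2 at 7.5, Myl3 at 4.35, Mylpf at 164.1, Mybpc1 at 47.2 and Mybpc2 at 181.6. Of the thin filament, Acta1 was marked at 1428.9, Tnnt1 at 11.8, Tnnt3 at 341.8, Tnni1 at 4.83, Tnni2 at 121.9 and Tnnc2 at 115.7. Of the Z-disc and scaffold genes, Actn3 was marked at 204.7, Ttn at 132.0, Neb at 47.2, Tcap at 32.3, Myoz1 at 25.8 and Smpx at 4.27. Of the calcium genes, Atp2a1 was marked at 569.7, Casq1 at 51.1, Ryr1 at 70.2, Cacna1s at 24.0 and Pvalb at 67.2. Of the metabolic genes, Ckm was marked at 509.1, Mb at 24.7, Eno3 at 117.2 and Pygm at 158.5. The regulators Myod1, at 0.441, and Pax7, at 0.105, were marked on 21 and 5 counts.

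The remaining mark was Ckmt2 at 0.0877 CPM in the tumor 2 labelled ΔAgo2, below 0.226 to 0.239 CPM in the other 3 of its group, on 10 counts. Tnnt2, Tnni3, Actc1, Actn2, Tnnc1, Des, Mylk2 and Myog were marked in neither group.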

How the results depend on the processing

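The main limits are depth and single libraries: Tnnt2 rests on at most 22 counts in a wild-type tumor, the shallowest library has 7903288 counts, and the cause of changed calls was not tested. With all 8 tumors, 560 genes passed, 1 member as lower, 1 member as higher, and 4 other striated muscle genes as lower. In the same order, DESeq2 gave 2265, 14, 1 and 19, limma voom 4476, 7, 1 and 8, and no count filter 983, 21, 1 and 14, where more genes were tested. A minimum of 10 counts gave 550, 1, 0 and 4, thinning to equal depth 514, 2, 0 and 5, and the GC offset 657, 1, 1 and 0. Limma on log2(TPM + 1) gave 153, 0, 0 and 0, with a pseudocount of 0.1 it gave 107, 0, 0 and 0, and with no filter 77, 0, 0 and 0. Leaving out 1 library gave 88 to 1793 genes, 0 to 6 members lower (6 without wild-type tumor 1, 0 without wild-type tumor 2 or without tumors 2, 3 or 4 labelled ΔAgo2), 0 to 1 higher, and 0 to 11 other striated muscle genes lower (11 without wild-type tumor 1). Size factors of DESeq2 in edgeR changed no call of a member.

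The replicate number as a block gave 70 genes, 1 member lower (Myh2), 0 higher and 0 other striated muscle genes, and the block with the GC offset gave 367, 1, 1 and 0. The labels give no meaning to a shared number. The deviations of same-numbered tumors correlated at -0.236, 0.103, -0.045 and -0.29, and 0 of 4 pairs correlated best with their own number. The number is thus not known to mark anything shared, but so few pairs cannot exclude it.

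Over the 20 alternatives Myh2 stayed between -3.17 and -1.62 on the log2 scale and passed in 13, with an adjusted p up to 0.277. Tnnt2 could be fitted in 16, stayed between 0.89 and 4.12, and passed in 11, with an adjusted p up to 0.128. The sign of Tnni3 turned, to 0.02 with the block and the GC offset and to 0.03 without wild-type tumor 2. Over single libraries left out, its log2 fold change ran from -0.67 to 0.03. Without wild-type tumor 3 the sign also turned for Neb (range over single libraries left out, -2.3 to 0.19), Smpx (-2.02 to 0.11), Pvalb (-4.2 to 0.09) and Mb (-2.54 to 0.45).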
